A study of Homo sapiens with 9 samples.

Results

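The genes described here are 10 cilium-linked genes: HSPB11, MKKS, DPCD, IQCB1, IFT20, IFT27, IFT52, IFT57, IFT88 and BBS4. They were taken by name from the 9221 gene symbols in the tables of normalized ribosome footprint counts, and were chosen by the log2 ratios of compound to vehicle mean of HSPB11, MKKS and DPCD, together with genes of linked function. The ratios are therefore given as a description, with no test. All 10 are listed in the table for PF846 and 9 in the table for PF8503, since IQCB1 is in the PF846 table only. Huh7 cells, a human hepatocellular carcinoma line, were treated for 1 hr with 1.5 μM PF-06378503 (PF8503), with 1.5 μM PF-06446846 (PF846, spelled PF-067446846 in the sample titles) or with 0.5% DMSO as vehicle, with 3 libraries per condition and 9 in all, described as biological triplicates of this single line. Both compounds are translation inhibitors that bind in the exit tunnel of the ribosome and stall the synthesis of selected proteins. All 8 liver markers that were checked, among them ALB and APOB, lay above at least 80.6% of transcripts in vehicle cells. This ranking was by mean normalized counts, without regard to coding length. Whether the cultures carried cilia was not measured.

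The cilium is an antenna or a beating hair built on a microtubule core. Intraflagellar transport (IFT) trains made of the IFT-A and IFT-B complexes carry its building material, and the BBSome, an assembly of Bardet-Biedl syndrome (BBS) proteins, carries membrane proteins. HSPB11, also named IFT25, pairs with the small GTPase IFT27 in the IFT-B complex and is needed for the export of hedgehog signalling proteins from cilia. MKKS (BBS6) is related to the subunits of the cytosolic chaperonin and helps to assemble the BBSome. DPCD was named for its link to primary ciliary dyskinesia, a disorder of motile cilia. IQCB1 (nephrocystin 5) sits at the ciliary base, while IFT20, IFT52, IFT57 and IFT88 are further IFT-B subunits and BBS4 is a subunit of the BBSome.

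Because the compounds act on the chain that is being made, the first 30 codons of the coding sequences are shown for HSPB11, MKKS and DPCD, the genes with the lowest ratios, and for IFT27, the partner of HSPB11. Codons with T as their middle base, which encode the hydrophobic residues Phe, Leu, Ile, Met and Val, are in capitals. The sequences are those of the GENCODE version 44 canonical transcripts on GRCh38, 5′ to 3′ on the coding strand.
HSPB11: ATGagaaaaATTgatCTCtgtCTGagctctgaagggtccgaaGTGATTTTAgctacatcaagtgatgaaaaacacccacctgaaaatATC
MKKS: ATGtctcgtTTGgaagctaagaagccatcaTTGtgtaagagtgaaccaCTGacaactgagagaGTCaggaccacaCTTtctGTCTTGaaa
DPCD: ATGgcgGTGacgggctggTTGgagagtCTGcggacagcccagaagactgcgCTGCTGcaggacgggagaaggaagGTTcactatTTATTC
IFT27: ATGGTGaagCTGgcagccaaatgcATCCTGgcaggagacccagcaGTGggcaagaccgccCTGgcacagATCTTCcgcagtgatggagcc

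For HSPB11 these codons lie in exon 2 at chr1:53939993-53940082 on the reverse strand. Those of MKKS lie in exon 3 at chr20:10413425-10413514, also on the reverse strand. In DPCD they are split between exon 1 at chr10:101588337-101588400 and exon 2 at chr10:101594658-101594683 on the forward strand. In IFT27 they are split between exon 1 at chr22:36775674-36775707 and exon 2 at chr22:36767807-36767862 on the reverse strand. The share of such codons was 26.7% in HSPB11 and in MKKS, which is the median over all genes of the tables that were matched to a coding sequence. It was 30% in both DPCD and IFT27, 33.3% in IQCB1 and IFT20 and 16.7% in BBS4, the lowest of the 10 genes. From the 5th to the 95th percentile of all matched genes the share ran from 10% to 43.3%, so the coding starts of the 10 genes were ordinary by this measure. GENCODE lists 2 further short coding models under the name MKKS, of 63 and 50 codons, both lying 5′ of the main start codon, at chr20:10420549-10420737 and chr20:10413738-10413887. It is not known whether the authors counted reads in them.

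The level of each gene in vehicle cells was compared per coding length, as the authors' mean of normalized counts per 100 codons on the scale of the PF846 table. HSPB11 was the highest at 473 per 100 codons and lay above 86.4% of transcripts. DPCD followed at 151, above 65.6% of transcripts. These were the only ones of the 10 genes above the median of all transcripts, which was 84.0 per 100 codons. BBS4 at 75.3 and IFT27 at 74.0 came next, followed by IFT20 at 63.7 and IFT52 at 60.3. The lowest were IFT57 at 43.3, MKKS at 33.6, IQCB1 at 30.1 and IFT88 at 29.8, a 15.9-fold span between HSPB11 and IFT88. HSPB11 thus held many more footprints per codon than its partner IFT27. The order of close neighbours such as BBS4 and IFT27 cannot be told from these values, because the tables give 1 mean per condition and no spread. The levels also take the coding sequence as counted from near its start, and would be too low for a gene counted over a shorter region in both tables.

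**Figure D1:**
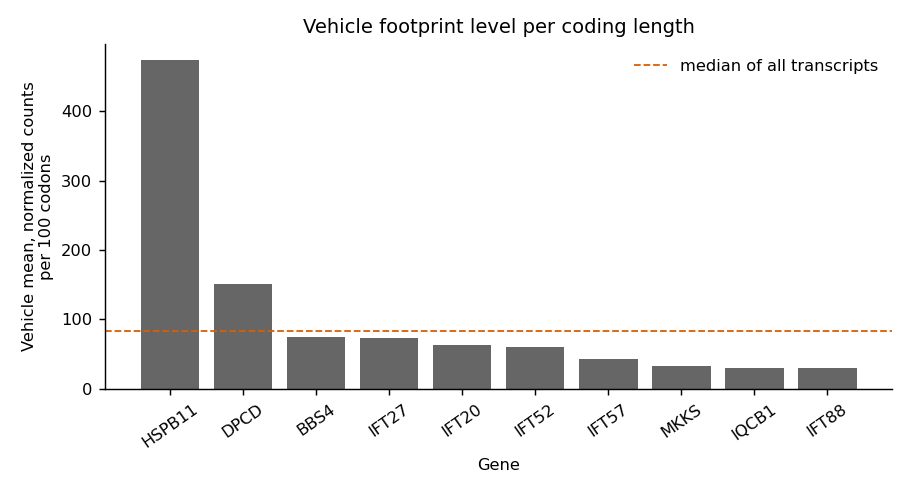
Vehicle footprint level of the 10 cilium-linked genes, as the authors' mean of normalized counts per 100 codons (bars, linear axis from 0), with the median of all transcripts as a dashed line. HSPB11 at 473 and DPCD at 151 stand above the median of 84.0, and the other 8 genes stand below it.

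The question put to the tables was whether the compounds change how many footprints were counted on these genes. Where the cumulative reads differed strongly, the authors counted only the reads 3′ of the codon of largest difference. For each compound the authors compared 3 libraries with the same 3 vehicle libraries. In the PF8503 table, HSPB11 and MKKS were lower than vehicle by more than 0.5 on the log2 scale, which is 2 of 9 genes, and none was higher by as much. Of the 9157 transcripts in all, 1.08% were lower and 0.24% higher by at least 0.5. With PF846, DPCD was lower by more than 0.5, which is 1 of 10 genes, and none was higher. Over all 8839 transcripts 0.396% were lower and 0.0792% higher. The genes were chosen with these ratios known, so nothing is read from the counts or from the ranks given below. No sequencing lane held libraries of more than 1 condition, so that treatment and lane cannot be told apart. No mRNA levels were analysed here, so fewer ribosomes per mRNA and fewer mRNAs cannot be told apart. Neither can fewer cells that make a transcript and less of it in each cell. Reads 5′ of the codon of largest difference are not in the count where one was used. A lower count can therefore also go with ribosomes held further 5′ on the same mRNA, which was not tested.

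HSPB11, the partner of IFT27 on IFT trains, was low with PF8503 and near vehicle with PF846. In the PF8503 table its mean was 591 normalized counts with vehicle and 330 with PF8503. This is a log2 change of -0.84, or a percent change of -44.1%, at rank 34 from the lowest of the table. Of the 500 transcripts nearest to it in vehicle mean, 2 had a lower log2 change, and the central 95% of them lay between -0.26 and 0.23. The PF846 table gave HSPB11 591 with vehicle and 581 with PF846, a log2 change of -0.024, with 177 of 500 transcripts of like depth lower.

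MKKS, the BBSome assembly factor, was low with both compounds. Its mean was 202 with vehicle and 107 with PF8503, a log2 change of -0.91, which was the lowest among the 10 genes with either compound and stood at rank 29 from the lowest of the PF8503 table. There, 3 of 500 transcripts of like depth were lower. Under PF846 it went from 185 with vehicle to 143 with PF846, a log2 change of -0.37, at rank 52 from the lowest. That is short of 0.5, but below the central 95% of transcripts of like depth, which lay between -0.28 and 0.20. The same vehicle libraries enter both changes.

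DPCD, the gene linked to motile cilia, was below vehicle with both compounds. With PF846 its mean was 124 and with vehicle 227, a log2 change of -0.87. It stood at rank 16 from the lowest of the PF846 table, and none of the 500 transcripts of like depth was lower. In the PF8503 table DPCD stood at 304 with vehicle and 245 with PF8503, a log2 change of -0.31. This was just below the range of transcripts of like depth, which began at -0.25, with 11 of 500 lower.

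The region of the coding sequence that was counted is a separate measure, which can be read from the vehicle means alone. The authors summed reads 3′ of the codon where the cumulative reads of compound and vehicle differ most, if that difference was large, and otherwise from near the start codon. Since the vehicle libraries are the same in both tables, their ratio takes 1 fixed value for transcripts counted over the same codons. The ratio was 1.09 for 98.5% of the 8775 transcripts in both tables, within 0.002 on the log2 scale. HSPB11 departed from it by -0.13, so that its PF8503 region held 91.5% of the vehicle reads of its PF846 region. DPCD departed by 0.29 in the other direction, and its PF846 region held 81.6% of the vehicle reads of its PF8503 region. Each of these genes had the shorter region in the table where it was lowest. A shorter region was found for 1.05% of transcripts with PF8503 and for 0.479% with PF846. The other 7 genes in both tables, MKKS among them, stood at the constant ratio, so the same codons of each were counted for both compounds. Counting 3′ of the largest deficit can lower a ratio by construction. For HSPB11 with PF8503 and DPCD with PF846 the log2 changes therefore describe the part of the coding sequence after that codon, and those with the other compound describe a longer part. For MKKS the constant ratio shows that both regions were equal, not where they began, so the same limit may hold for its changes with both compounds.

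**Figure D2:**
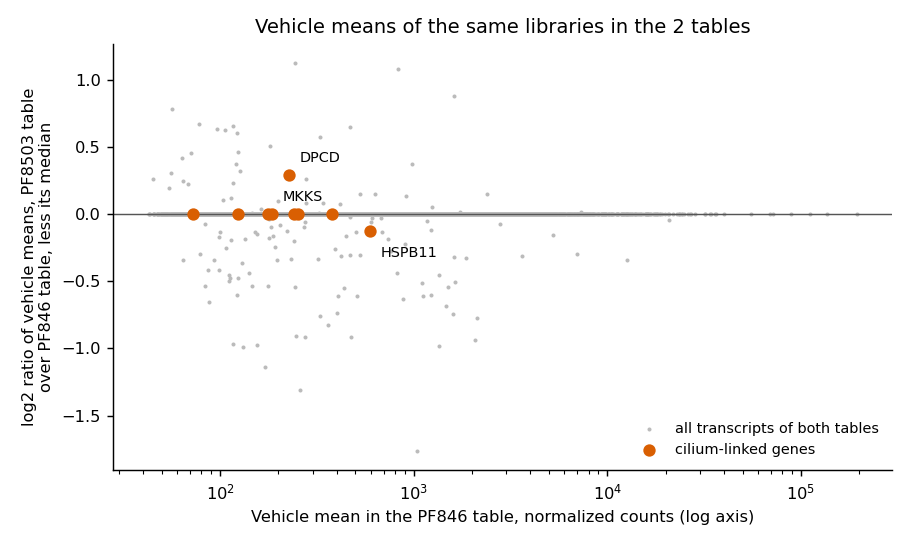
Vehicle means of the same libraries compared between the tables, as the log2 ratio of the PF8503 table to the PF846 table less its median (vertical axis), against the vehicle mean in the PF846 table in normalized counts (log axis). Each grey point is a transcript and orange points are cilium-linked genes. HSPB11 at -0.13 and DPCD at 0.29 lie off the line on which MKKS and the other 6 genes in both tables lie.

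**Figure D3:**
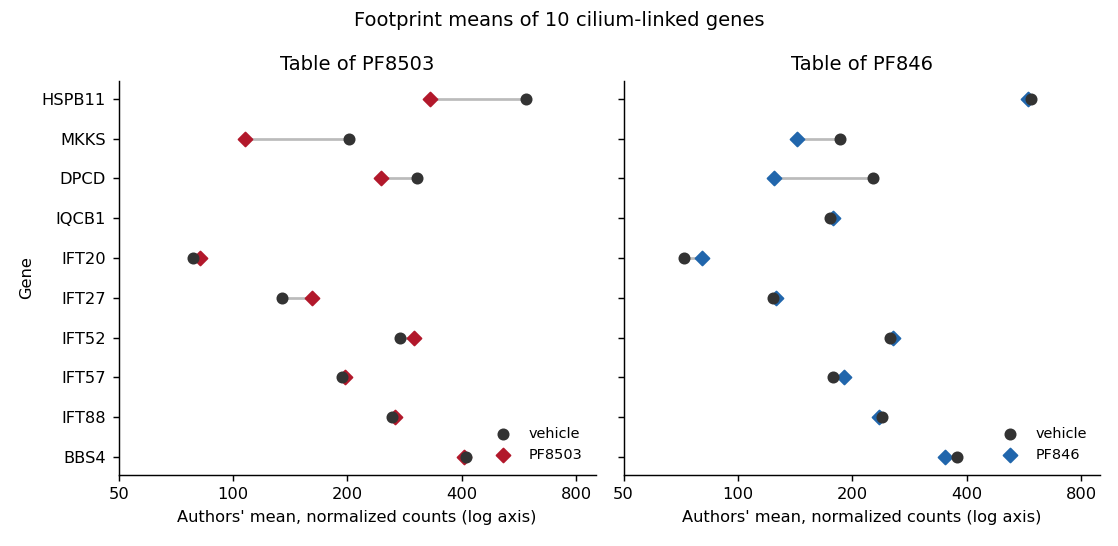
Authors' means of normalized counts (log axis) for the cilium-linked genes with vehicle (black circles) and with each compound (coloured diamonds), PF8503 at left and PF846 at right. HSPB11 and MKKS are well to the left of vehicle with PF8503, as is DPCD with PF846. DPCD with PF8503 and MKKS with PF846 are to the left by less, and IFT27 with PF8503 is to the right. The other markers lie closer together.

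The remaining IFT-B subunits stayed close to vehicle. The 5 other than HSPB11 had log2 changes from 0.021 to 0.26 for PF8503 and from -0.028 to 0.16 for PF846, all inside the central 95% of transcripts of like depth. IFT27, which forms a pair with HSPB11, was the highest with PF8503, with a mean of 135 with vehicle and 161 with the compound, a log2 change of 0.26. With PF846 it stood at 126 against 124 for vehicle, a log2 change of 0.031. The partners HSPB11 and IFT27 therefore lay on opposite sides of vehicle with PF8503, although IFT27 did not leave the spread of its depth, which reached 0.34.

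IFT52, which joins the core of the IFT-B complex to its outer part, had means of 275 with vehicle and 299 with PF8503, a log2 change of 0.12. With PF846 they were 252 and 256, a log2 change of 0.023. IFT88, a core subunit whose loss stops cilium formation, went from 262 to 267 with PF8503 (log2 change 0.027) and from 240 to 235 with PF846 (-0.028). Neither gene moved by more than 0.12 with either compound.

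IFT57 stood at 194 with vehicle and 197 with PF8503, a log2 change of 0.021, and at 178 and 190 with PF846, a log2 change of 0.095. IFT20, the IFT-B subunit that is also found at the Golgi apparatus, was the least counted of the genes. Its means were 78.6 with vehicle and 81.9 with PF8503 (log2 change 0.058) and 72.0 and 80.3 with PF846 (0.16). At this depth the central 95% of transcripts lay between -0.41 and 0.39 with PF8503, the widest range for any of the genes. A change of the size seen in MKKS with PF8503 would lie outside it, and one like that of DPCD with PF8503 inside. The range is a spread between transcripts and does not measure replicate error, so it sets no limit of detection.

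At the BBSome and the ciliary base the values that were listed were likewise close to vehicle. BBS4 had means of 411 and 406 with vehicle and PF8503, a log2 change of -0.018, and of 377 and 352 with vehicle and PF846, a log2 change of -0.099. IQCB1 had means of 174 with vehicle and 178 with PF846, a log2 change of 0.033. Its change with PF8503 is unknown, because it has no PF8503 value. The vehicle mean of 174 was well above the lowest mean listed for PF8503, which was 35.4. Why IQCB1 is missing there was not tested, and its absence is not a sign of no change. The median log2 change was 0.021 over the 9 genes with PF8503 and -0.00052 over the 10 with PF846, against 0.013 and 0.00086 over all transcripts of the tables.

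**Figure D4:**
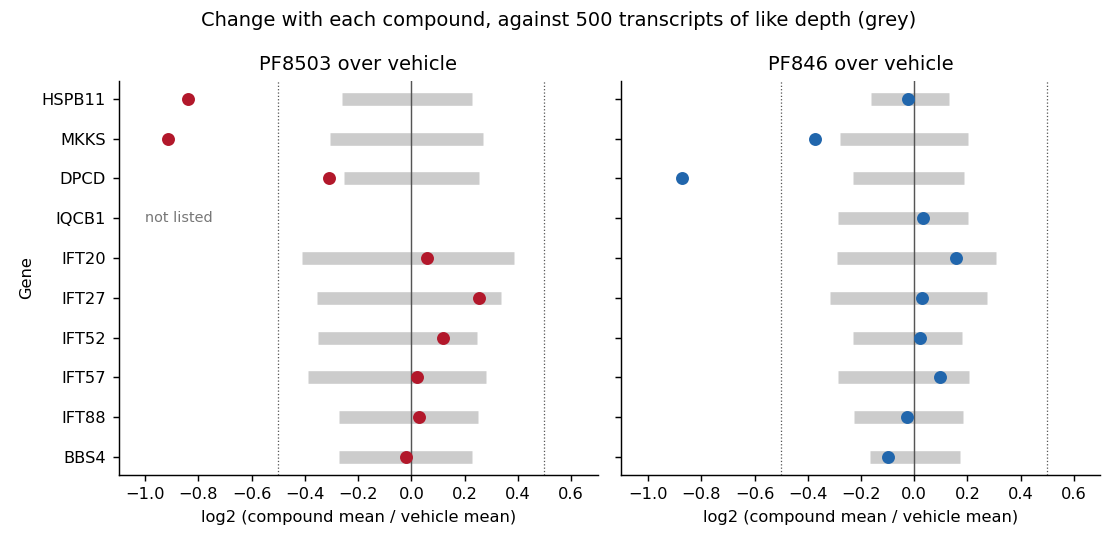
The log2 ratio of compound mean to vehicle mean for each cilium-linked gene (points), with PF8503 on the left and PF846 on the right. Grey bars show the central 95% of the 500 transcripts nearest in vehicle mean and dotted lines mark 0.5 in either direction. HSPB11, MKKS and DPCD lie below their grey bars with PF8503, MKKS and DPCD lie below them with PF846, and the other genes lie within.

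The compounds were used at the same dose and time, so their changes can be set side by side for the 9 genes in both tables, in 1 pair of compounds. The difference of the log2 changes, PF8503 minus PF846, was -0.54 for MKKS, where the same codons were counted and the shared vehicle drops out. Of the 8641 transcripts with the same region in both tables, 22 had a lower difference than MKKS, and the central 95% lay between -0.25 and 0.26. MKKS was chosen by the ratios that make up this difference, so nothing is read from its rank. The libraries of the compounds were also on separate lanes. The difference was -0.82 for HSPB11 and 0.56 for DPCD. For these genes the regions differed, so no comparison between the compounds is made from those values. For the other 6 the difference ran from -0.099 in IFT20 to 0.23 in IFT27, all within the range of transcripts with the same region. No interval of a difference could be given without values of single libraries, and these small differences do not show that the compounds act alike.

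Other transcripts with a similar pair of changes were found by the distance over both log2 changes, among 7906 transcripts with a vehicle mean of at least 100 in each table. Near to HSPB11 were GDI2 (-0.83 with PF8503 and -0.027 with PF846), which recycles Rab GTPases, and SEC63 (-0.84 and 0.0027), a helper of the endoplasmic reticulum translocon. Nearest to MKKS were PDE3B (-0.97 and -0.26), a phosphodiesterase, BRF1 (-1.02 and -0.27), a factor of RNA polymerase III, and SSR4 (-0.81 and -0.19), a translocon-associated protein. For DPCD they were BCAP31 (-0.24 and -1.05), a membrane protein of the endoplasmic reticulum, CDO1 (-0.10 and -0.86), cysteine dioxygenase, and MRPL45 (-0.16 and -0.72), a mitochondrial ribosomal protein. None of these transcripts is in the cilium gene lists used here. The nearest transcript lay at a distance of 0.0060 for HSPB11, 0.12 for MKKS and 0.19 for DPCD. The likeness is over 2 values only. By the ratio of vehicle means, SEC63, BRF1, SSR4, BCAP31 and CDO1 were counted over different regions in the tables, as were HSPB11 and DPCD, so their pairs of changes do not compare the compounds.

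The wider set of cilium genes was described with 10 lists holding 153 genes, of which 143 are not among the 10. With PF8503, 97 of these 143 were in the table, with log2 changes between -0.32 and 0.31 and a median of -0.0091. With PF846, 86 were in the table, between -0.25 and 0.29, with a median of -0.0047. None was lower or higher by 0.5 with either compound. Over all transcripts 1.08% were lower and 0.24% higher with PF8503, and 0.396% and 0.0792% with PF846, so a count of 0 among this many genes is near the background and nothing is read from it.

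In the IFT-B list, 15 of 18 genes were listed for PF8503 and 13 for PF846. The subunits other than the named genes had medians of -0.0034 with PF8503 and -0.087 with PF846. TRAF3IP1 (IFT54) was the lowest of these, with log2 changes of -0.31 and -0.25 and means that went from 151 to 122 with PF8503 and from 138 to 116 with PF846. IFT172 was the highest with PF846, at 0.28, from 102 to 123. All 6 genes of the IFT-A complex, which drives return transport, were in both tables, with medians of -0.11 with PF8503 and -0.019 with PF846. IFT140 was the highest of them with both compounds, at 0.21 and 0.26, while IFT122 was the lowest with PF8503 (-0.16) and WDR19 with PF846 (-0.13). Among the motors that pull IFT trains and their light chains, 10 genes in the PF8503 table lay between -0.10 (DYNLL2) and 0.13 (WDR34 and KIF3A). For PF846, 9 lay between -0.12 (DYNLL1) and 0.072 (DYNC2LI1).

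The BBSome list held 9 genes in the PF8503 table, of which 8 were below vehicle, against 45.3% of all transcripts below vehicle in that table. Their median was -0.093, and no gene was lower by 0.5. LZTFL1, which regulates BBSome entry into cilia, went from 468 to 416 with PF8503 (-0.17) and from 428 to 384 with PF846 (-0.16), the lowest with a vehicle mean of at least 100. TTC8 (BBS8) was at 0.016 with PF8503 and BBS7 at 0.024 with PF846, the highest. For PF846 the list had 7 genes with a median of -0.12, of which 5 were below vehicle, against 49.7% of all transcripts. The lean with PF8503 was not particular to this list. There, 5 of 6 IFT-A genes and 13 of 18 transition zone genes were also below vehicle. Below vehicle too were 7 of 15 IFT-B, 8 of 19 basal body and 4 of 11 dynein arm and motile cilium genes. The remaining lists had 5 of 10 motors, 6 of 12 GTPases, 2 of 4 hedgehog genes and 1 of 2 chaperonin-like proteins. Nothing is read from these counts. Of the chaperonin-like BBS proteins, BBS10 was the one in the tables beside MKKS. Its means were 87.0 with vehicle and 99.7 with PF8503 (log2 change 0.20), and 79.6 and 84.7 with PF846 (0.089), so it was above vehicle where MKKS was below. Both values are small for its depth. IFT20, with vehicle means of 78.6 and 72.0, had ranges of like depth that reached 0.39 with PF8503 and 0.31 with PF846.

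Transition zone genes and nephrocystins, which guard the ciliary gate and include IQCB1, had medians of -0.082 over 18 genes with PF8503 and -0.035 over 14 with PF846. Among those with a vehicle mean of at least 100, INVS (inversin) was the lowest with PF8503 (-0.17) and CSPP1 with PF846 (-0.13), while B9D1 at 0.12 and RPGR at 0.11 were the highest. In the list of dynein arm assembly and motile cilium genes, DPCD was the lowest with PF846 and, among genes with a vehicle mean of at least 100, with PF8503. The 10 other genes had a median of 0.029 with PF8503, and the 9 other genes one of 0.0037 with PF846. RUVBL1 and RUVBL2, the ATPases to which DPCD binds, stood at -0.035 and 0.12 with PF8503 and at -0.040 and 0.039 with PF846, from vehicle means between 1776 and 2725. C21orf59, a dynein assembly factor, was at 0.25 with PF846, from 229 to 272, the highest with a vehicle mean of at least 100. Its own range of like depth was not computed. That of DPCD, at a vehicle mean of 227 in the same table, ended at 0.19, below the value of C21orf59.

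**Figure D5:**
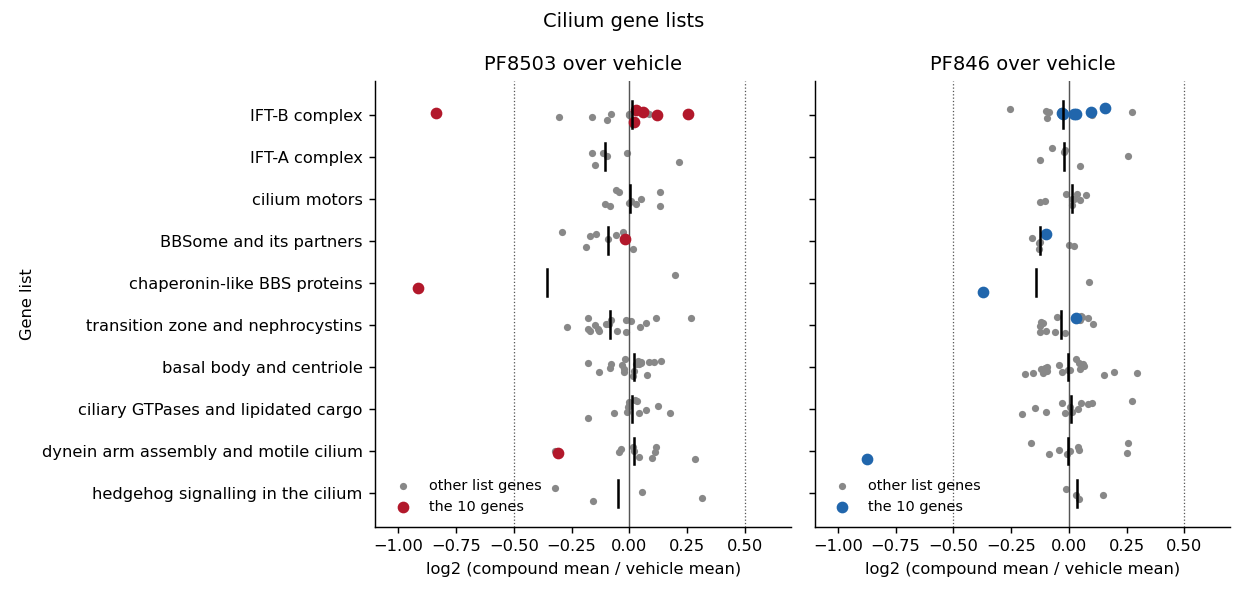
The log2 ratio of compound mean to vehicle mean for the genes of 10 cilium lists, with PF8503 on the left and PF846 on the right. Coloured points are the named 10 genes, grey points are other list genes, black ticks are list medians and dotted lines mark 0.5 in either direction. No grey point lies beyond 0.5, and HSPB11, MKKS and DPCD are the only coloured points that do.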

How the data were processed

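Ribosome footprints were sequenced from 9 libraries. Per the paper's methods and the labels, the authors aligned reads with Bowtie to GENCODE version 24 canonical coding transcripts (GRCh38), keeping reads with a single position, and summed them 3′ of the codon of largest cumulative difference or from near the start, without the last 10 codons. Versions of Bowtie and DESeq are not given in the sources used here. Each deposited signal value is the authors' mean, for 1 condition in 1 table, of footprint counts after division by DESeq size factors. Single-library depth is therefore unknown, and no interval or test was computed. The tables also hold the authors' ratios, their log2 and p-values, which were not used. The vehicle libraries are shared by the tables.

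Computed here were log2 ratios of the means with no pseudocount, ranks, central ranges over the 500 transcripts nearest in vehicle mean, and the ratio of vehicle means between tables. A log2 change of 0.5 was the size counted. Coding lengths and sequences came from GENCODE version 44, with 9 codons at the start and 10 at the end left out of lengths. Of the 9221 symbols 99.2% were matched, HSPB11 under its newer symbol IFT25. The authors' transcripts may differ from these. Apart from the 10 genes, the genes named were the lowest and highest of each list with a vehicle mean of at least 100, and the 3 transcripts nearest to HSPB11, MKKS and DPCD. Some genes that this rule takes are not reported here. KIF3A, BBS10, RUVBL1 and RUVBL2 were named after their values were seen. The genes and lists were chosen with earlier results of these data known. Steps were run on simulated data with counting noise only and changes well above 0.5, and the region step was run without noise. This checked the code and does not show how accurate the steps are on real replicates. Alternatives were centring, equal sums, pseudocounts of 1 and 10, other sizes of change, a minimum mean, the mean in place of the median, ratios of compound means, another tolerance, whole coding lengths and fewer nearest transcripts. Python 3.11.15, numpy 2.4.6, pandas 2.3.3 and matplotlib 3.10.9 were used.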

Additional observations from a re-analysis of the deposited data

How the results depend on the processing

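Centring on the median of all transcripts, equal sums and pseudocounts of 1 or 10 gave 76 values for single genes. None reversed a change of at least 0.5, and each moved by less than the robust SD of transcripts of like depth. That SD is a spread between transcripts and does not measure replicate error. Centring and equal sums shift all genes of a table alike, and the pseudocounts were small beside the means. Small movements were therefore built in, and nothing is read from them. At a size of 1 no gene was lower with PF8503 (0, against 2 at 0.5) or with PF846 (0, against 1), and at a size of 0.3 the count with PF846 was 2. The median log2 change with PF8503 was 0.027 over genes with the same region counted, 0.0012 at a vehicle mean of at least 100 and 0.0080 after centring, and the mean was -0.18. With PF846 the median was 0.027 over genes with the same region and -0.024 at a vehicle mean of at least 100, and the mean was -0.11. As a ratio of the compound means, the difference between compounds was -0.94 for HSPB11 and 0.86 for DPCD, since this ratio also holds the difference in region. Over whole coding lengths, the span of vehicle levels was 14.1-fold, and IFT52 and IFT20 changed places. Under the other alternatives, counts stayed within 1.5 times. Leaving out replicates was not run, because the tables hold no values of single libraries. No paired analysis was possible because the tables hold 1 mean per condition and no replicate numbers.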

Other observations

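Other cilium genes with no place in the comparisons above were also close to vehicle. Of the basal body and centriole genes, 19 of 23 were in each table, with medians of 0.018 with PF8503 and -0.0024 with PF846. KIF24 was the highest with PF8503 at 0.14, and with PF846 MPHOSPH9 was the lowest at -0.16 and CETN3 the highest at 0.29, each with a vehicle mean of at least 100. The range of like depth was not computed for CETN3. With PF846, that of IFT27, at a vehicle mean of 124, ended at 0.27, just below the value of CETN3. CCP110, which caps centrioles before cilium growth and was singled out after its value was seen, departed by 0.42 from the constant ratio of the vehicle means, the sign of a shorter region in the PF846 table. Its log2 change there was -0.19, from 63.4 to 55.5, and it was 0.014 in the PF8503 table.

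The ciliary GTPases and lipidated cargo carriers had 12 genes in each table, with medians of 0.011 and 0.0099. Among those with a vehicle mean of at least 100, RAB11A at -0.066 and ARL3 at 0.18 were the lowest and highest with PF8503, and TULP3 at -0.15 was the lowest with PF846. Of the hedgehog pathway 4 genes were listed. PTCH1, the receptor of hedgehog ligands, went from 157 to 195 with PF8503 (0.31), while SMO, the transducer it holds in check, went from 143 to 115 (-0.32). Ranges of like depth were not computed for PTCH1 and SMO. IFT27, with a vehicle mean of 135 in that table, had a range from -0.36 to 0.34, which would hold both values. IFT57, with a vehicle mean of 194, had a range from -0.39 to 0.28, which would hold SMO but not PTCH1. Whether PTCH1 lay inside the spread of its depth is therefore not settled. With PF846, PTCH1 was at -0.013 and SMO at 0.032. SUFU, an inhibitor of the pathway, was the highest with PF846 at 0.15.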
